A study of Mus musculus with 8 samples.

Results

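The genes described here are 31 mouse genes of cholesterol synthesis and turnover, taken by symbol from a fixed list. They comprise 19 synthesis enzymes, 7 regulators and 5 genes of turnover, export and transport. All 31 were found among the 55471 genes of a table of exonic read counts, and all 31 among the 18513 genes of a second table that holds exonic and intronic counts separately. Nuclear polyadenylated RNA was sequenced from forebrain nuclei of male C57BL/6J mice aged 6 to 8 weeks, of genotype CaMKIIalpha-Cre:SUN1-sfGFP. In this genotype Cre recombinase is driven by a promoter of forebrain excitatory neurons and switches on a green fluorescent tag on the nuclear envelope, by which the nuclei are captured on antibody-coated beads. The 4 Mock samples received scopolamine methyl nitrate at 1 mg/kg and, 30 min later, saline. The 4 Pilo samples received the same scopolamine and then pilocarpine hydrochloride, a muscarinic agonist, at 340 mg/kg, and mice with seizures of Racine score 3 to 5 were kept after 100 min. Scopolamine was thus shared by both groups, and drug exposure, seizure and selection by score cannot be told apart in this design. No time after injection is given for Mock, so whether the groups were matched in time is not known. Whether the samples came from different mice is not said in the labels. The p-values therefore measure only how far these samples vary, and that variation may be technical.

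Cholesterol in the brain is made locally, since lipoproteins of the blood do not cross the blood-brain barrier to any useful extent. The mevalonate part of the pathway joins acetyl units into isoprenoids, squalene synthase and squalene epoxidase commit these to sterols, and the later enzymes trim lanosterol to cholesterol. The transcription factor SREBP-2, encoded by Srebf2, is held in the endoplasmic reticulum with SCAP and an INSIG protein while sterols are plentiful, and when they are scarce it is cleaved and switches on most of these enzymes. Neurons dispose of surplus cholesterol chiefly through the hydroxylase CYP46A1, and the liver X receptors (Nr1h2 and Nr1h3) sense oxysterols and raise export genes such as Abca1, Abcg1 and Apoe.

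Exonic totals were 29356788 to 36161448 counts per library, and intronic totals 11928054 to 16703475. The unit of level is CPM, the count scaled to a common library total after TMM normalisation. The 7 markers of forebrain excitatory neurons were all detected, with a summed exonic level of 2307 to 2942 CPM in Mock and 2598 to 3153 CPM in Pilo. Markers of other cells were present too, and none measured had a mean of 0. In exonic counts the 8 astrocyte markers summed to 821 to 1209 CPM in Mock and 975 to 1458 in Pilo, with Slc1a2 making up 766 CPM of the Mock mean. The 7 oligodendrocyte markers summed to 324 to 439 and 412 to 737 CPM, the 4 markers of oligodendrocyte precursors to 23.5 to 43.9 and 27.1 to 63.0, the 7 microglial markers to 14.4 to 21.6 and 16.2 to 25.8, the 5 endothelial markers to 4.13 to 17.8 and 6.30 to 46.8, and the 6 inhibitory neuron markers to 117 to 154 and 153 to 240 CPM. Of these exonic sums, all but the endothelial one were higher in Pilo in each of the 4 same-numbered pairs, as was that of the excitatory markers. Without regard to pairs, these exonic sums gave p = 0.0571 (inhibitory) to 0.657 (endothelial) by exact permutation test, two-sided. In the fit of treatment alone, 0 of 8 astrocyte, 1 of 7 oligodendrocyte, 1 of 4 precursor and 0 of 7 microglial markers rose in exons. So did 0 of 5 endothelial, 2 of 6 inhibitory and 4 of 7 excitatory markers, where 15.6% of all genes rose. With the replicate number as a block, 5 of 8 astrocyte, 5 of 7 oligodendrocyte and 3 of 4 precursor markers rose in exons. So did 0 of 7 microglial, 3 of 5 endothelial and 6 of 6 inhibitory markers. Of the 7 excitatory markers, 5 rose and 1 fell in that fit, where 23.8% of all genes rose and 23.2% fell. In intronic counts, without regard to pairs, 2 marker lists were higher in every Pilo library than in every Mock library (exact permutation test, two-sided, p = 0.0286, the smallest that 4 against 4 allows). They were the 6 inhibitory neuron markers, at 50.5 to 66.3 against 69.9 to 135 CPM, and the 7 microglial markers, at 94.6 to 116 against 179 to 211 CPM. The microglial sum rested on Cx3cr1, whose mean was 99.6 and 189 CPM in introns but 2.16 and 2.80 CPM in exons. What part these cells had in the results below was not tested, and in such bulk samples more nuclei of a type and more RNA per nucleus cannot be told apart. By their correlation across genes, column 2 of a group in the exonic table matched column 3 of the same group in the second table and the reverse. Libraries are called by group and replicate number, as in Mock 1, and each number belongs to the table whose value it stands beside.

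The question put to both groups was which of these transcripts differed in level in excitatory neuronal nuclei during pilocarpine seizure. In exonic counts 8 of the 31 genes rose, 3 fell and 20 did not pass the test (edgeR's quasi-likelihood test, Benjamini-Hochberg adjusted p under 0.05 over all genes). The rises were Pmvk, Ebp, Sc5d, Fdft1 and Cyp51 among the enzymes and Srebf1, Srebf2 and Insig1 among the regulators, by 0.22 to 0.60 on the log2 scale. The falls were the enzymes Fdps, Nsdhl and Acat2. All 31 passed the filter on low counts. Over the 19176 genes tested, 15.6% rose and 16.2% fell, 31.8% in all, beside 35.5% of the cholesterol genes, a share near that background. The median log2 fold change of the 31 genes was 0.00, as was that of all genes. In 8 of the 31 genes the groups did not overlap, 5 higher and 3 lower in Pilo, where 15.7% and 16.2% of all genes had such groups, 32.0% in all. Exonic columns of the second table gave 6 rises and 4 falls, against 34.0% called of 14239 genes. With the replicate number as a block, 11 rose and 6 fell, against backgrounds of 23.8% and 23.2%, 47.0% in all. The number of rises was 3 without Mock 2 or Pilo 4, 4 without Mock 4 and 5 without Pilo 3.

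Intronic counts report unspliced or retained sequence. They may also hold reads of overlapping genes, since the strand setting and the handling of shared reads are not given. In intronic counts 4 genes rose and 8 fell among 30 tested. Over 13318 genes 19.6% rose and 21.9% fell, 41.4% in all, and the share called among the cholesterol genes, 40.0%, was again near that. Their median was -0.10, and that of the 18 enzymes tested was -0.29, where all genes had -0.00. Pmvk, Sc5d, Fdft1 and Srebf1 rose in both regions and Acat2, Nsdhl and Fdps fell in both. Sqle, Lss, Hsd17b7, Nr1h3 and Stard4 fell in introns and did not pass in exons. Ebp had 0 intronic counts in every library and was not tested there. Differences between regions were fitted within the second table, so they need not equal the exonic change of the first table less the intronic change. In 12 genes the intronic groups did not overlap, 3 higher and 9 lower, where 17.8% and 19.2% of all genes had such groups, 37.0% in all. Leaving out either Mock 1 or Pilo 3 left 5 falls. With the replicate block 9 rose and 10 fell, against backgrounds of 27.7% and 29.2%, 56.9% in all.

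**Figure D1:**
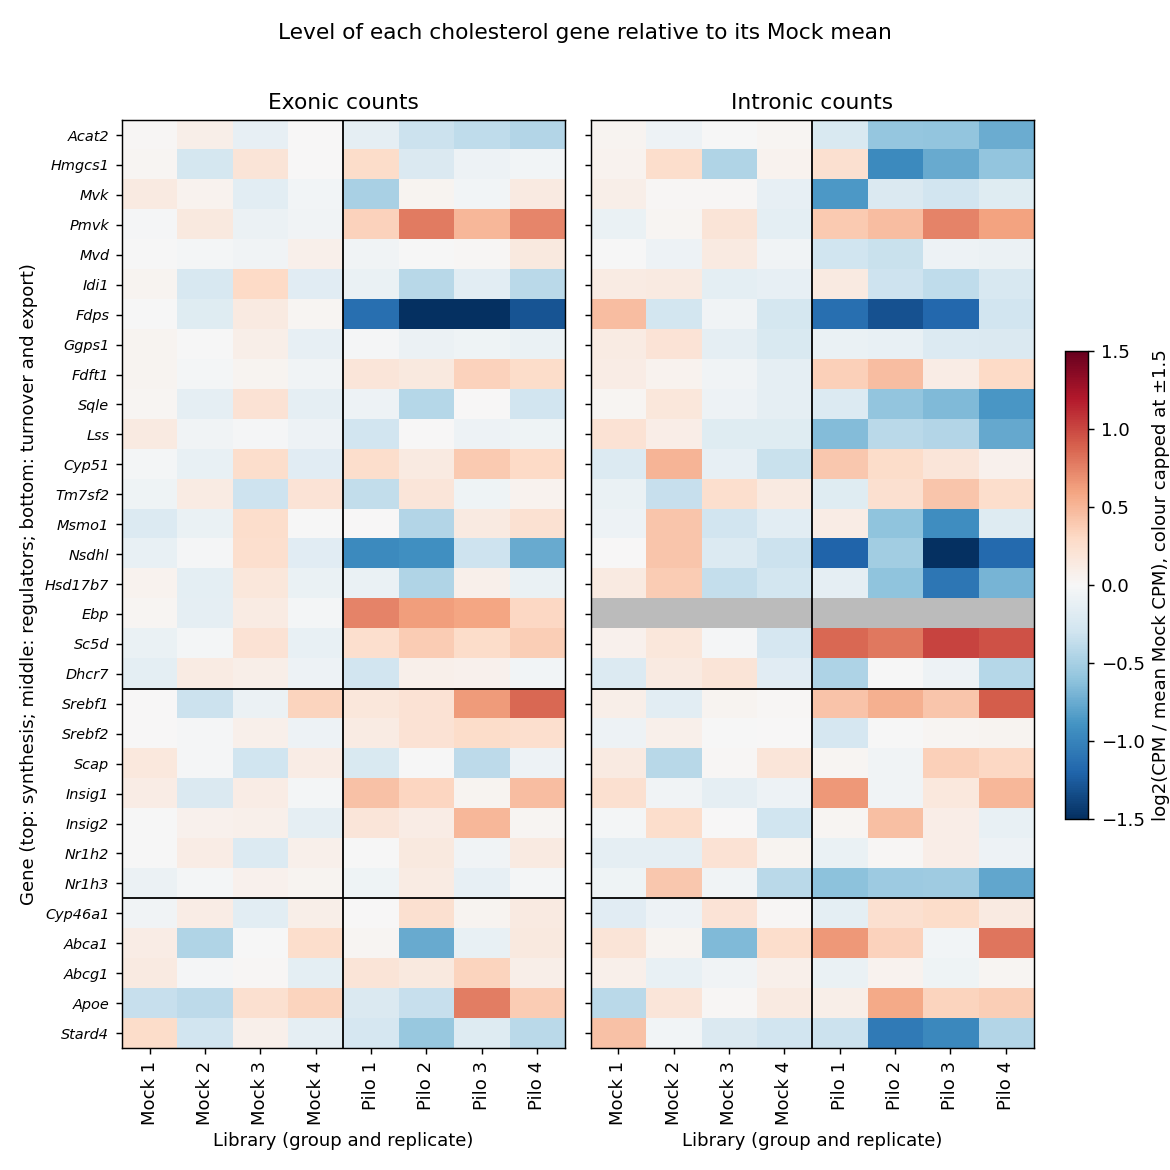
Level of each of the 31 genes in each library as log2 of its CPM over its Mock mean, with exonic counts on the left and intronic counts on the right, libraries in columns and genes in rows. Red is above and blue below the Mock mean, grey marks the absent intronic counts of Ebp, and the row of Fdps is blue in all 4 Pilo libraries of both panels.

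Levels of the genes, set per kilobase of merged exon so that genes can be compared, spanned a wide range in Mock. Cyp46a1 stood highest at 105 CPM per kb, followed by Apoe at 63.9 and the SREBP-2 gene Srebf2 at 25.3. Scap and Nr1h2 followed at 23.9 and 23.6 CPM per kb. Hmgcs1, which makes HMG-CoA, was the highest synthesis enzyme at 18.9 CPM per kb. At the bottom were Idi1 at 1.95, Nr1h3 at 1.04 and Fdps at 0.774 CPM per kb. Fdps, farnesyl diphosphate synthase, shares 26.7% of its exonic length with the same-strand gene Gm43738, and 26.2% of its transcript stretches of 50 bases also occur in transcripts of other genes. This share of stretches was 39.1% for Acat2 (with Acat3), 26.5% for Fdft1 and 25.3% for Idi1. Counts of these 4 genes are therefore uncertain in level, since the handling of shared reads is not given in the sources used here.

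Promoter windows of 26 of the 31 genes, 37 windows in all, were in the RefSeq table (GRCm38.p6), each from 250 bases before to 50 after an annotated start. They were searched on both strands for a motif like the sterol regulatory element (TCACNCCAC), the E-box CACGTG, the CCAAT box and the cAMP response element TGACGTCA. The sterol element motif was found in 1 window, that of Hmgcs1, and in 1.24% of the 32851 windows of all genes. CCAAT was in 56.8% of the cholesterol windows and 37.4% of all windows, and CACGTG in 18.9% and 7.15%. The element TGACGTCA was in 0 of the 37 windows and in 1.79% of all. The same windows were also searched for motifs of Sp1, AP-1, Egr and the liver X receptors, and for a shorter cAMP response element. Sp1 was in 67.6% of the cholesterol windows and 35.7% of all, and the shorter element in 29.7% and 20.8%. Egr was in 2.7% and 0.612%, AP-1 in 5.41% and 7.81%, and the receptor motif in 0% and 0.0152%. The 7 windows with the E-box belong to 6 genes, since the windows of Scap overlap and hold the same site. The windows below are those of 2 enzymes that rose, 2 that fell and the one that holds the sterol motif. Capitals mark the CCAAT box on either strand, the E-box and the sterol motif, none of which overlap here.
Ebp (chrX:8193463-8193762, minus strand): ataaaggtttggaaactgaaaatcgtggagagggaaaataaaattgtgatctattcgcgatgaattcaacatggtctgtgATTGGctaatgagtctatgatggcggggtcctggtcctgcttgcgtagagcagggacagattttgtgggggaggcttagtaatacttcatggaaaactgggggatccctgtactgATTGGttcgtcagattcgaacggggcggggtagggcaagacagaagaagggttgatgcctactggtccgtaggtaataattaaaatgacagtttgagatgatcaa
Sc5d (chr9:42264251-42264550, minus strand): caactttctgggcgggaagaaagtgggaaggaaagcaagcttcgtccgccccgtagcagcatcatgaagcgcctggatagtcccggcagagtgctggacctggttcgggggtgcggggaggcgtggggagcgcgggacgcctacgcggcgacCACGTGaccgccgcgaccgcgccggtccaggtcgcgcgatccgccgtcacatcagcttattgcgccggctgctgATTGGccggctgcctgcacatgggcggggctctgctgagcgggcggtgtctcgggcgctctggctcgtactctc
Acat2 (chr17:12960676-12960975, minus strand): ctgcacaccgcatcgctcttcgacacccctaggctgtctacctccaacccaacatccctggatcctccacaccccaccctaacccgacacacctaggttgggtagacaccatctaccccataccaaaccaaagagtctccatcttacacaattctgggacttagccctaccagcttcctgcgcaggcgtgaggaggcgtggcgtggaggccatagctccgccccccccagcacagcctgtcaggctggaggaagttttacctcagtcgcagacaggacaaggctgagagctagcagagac
Nsdhl (chrX:72918271-72918570, plus strand): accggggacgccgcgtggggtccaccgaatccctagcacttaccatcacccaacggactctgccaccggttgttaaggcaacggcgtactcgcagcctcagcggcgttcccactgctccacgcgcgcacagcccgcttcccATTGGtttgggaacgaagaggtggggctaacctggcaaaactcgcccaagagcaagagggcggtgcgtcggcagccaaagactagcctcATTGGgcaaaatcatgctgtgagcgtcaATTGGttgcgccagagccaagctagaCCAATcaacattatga
Hmgcs1 (chr13:119690101-119690400, plus strand): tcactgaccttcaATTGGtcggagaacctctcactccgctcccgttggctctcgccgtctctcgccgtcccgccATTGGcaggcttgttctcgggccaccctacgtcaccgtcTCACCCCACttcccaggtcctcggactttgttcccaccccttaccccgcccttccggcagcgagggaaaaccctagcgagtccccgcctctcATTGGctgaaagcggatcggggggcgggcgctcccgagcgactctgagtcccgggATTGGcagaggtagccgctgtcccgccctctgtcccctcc
Nsdhl, which fell, and Ebp, which rose, both hold CCAAT boxes, 4 and 2 of them. Acat2, which fell, holds no CCAAT box, E-box, sterol motif or TGACGTCA. A match is only a match of letters, and its absence says only that these letters are not in the window.

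Among enzymes of the mevalonate part, Pmvk rose and Acat2 and Fdps fell. Pmvk (chromosome 3, 89454541 to 89469013), phosphomevalonate kinase, stood at 23.0, 25.9, 21.9 and 22.5 CPM in Mock replicates 1 to 4 and at 29.6, 40.0, 32.9 and 38.6 CPM in Pilo. Every Pilo library was above every Mock library. Its log2 fold change was 0.60 (SE 0.10, adjusted p = 0.000773) in exons and 0.56 (SE 0.11, adjusted p = 0.000913) in introns, and the difference between regions was 0.01 (SE 0.08, adjusted p = 0.938). Acat2 (chromosome 17, 12942890 to 12960747), a cytosolic acetoacetyl-CoA thiolase that makes the first condensation, stood at 28.4, 29.7, 25.8 and 28.2 CPM in Mock and at 25.6, 22.5, 21.5 and 20.7 CPM in Pilo. The groups did not overlap, though Mock 3 and Pilo 1 were close. Its fold change was -0.31 (SE 0.09, adjusted p = 0.0171) in exons and -0.52 (SE 0.12, adjusted p = 0.00220) in introns. Leaving out either Mock 2 or Pilo 4 ended the exonic call of Acat2 (adjusted p = 0.0521 and 0.0620).

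Hmgcs1, HMG-CoA synthase, did not pass in exons, with 88.8, 72.2, 98.8 and 87.0 CPM in Mock and 105, 74.4, 82.4 and 84.2 CPM in Pilo. Its log2 fold change was -0.00 (SE 0.11, adjusted p = 0.987). Its intronic levels were 57.6, 66.7, 40.7 and 57.8 CPM in Mock and 65.7, 28.8, 33.1 and 36.9 CPM in Pilo, with Pilo 1 inside the Mock range and the other 3 Pilo libraries below every Mock library. The intronic change was -0.44 (SE 0.24, adjusted p = 0.162), and without Pilo 1 it was -0.76 (adjusted p = 0.00122). Exons changed less than introns, by a difference of 0.44 (SE 0.14, adjusted p = 0.0341), a call that was lost without Mock 1, 2 or 4 or Pilo 2, 3 or 4 (adjusted p 0.0566 to 0.0962).

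Mvk, Mvd, Idi1 and Ggps1 did not pass in either region. Mvk, mevalonate kinase, averaged 13.3 ± 1.11 CPM in Mock and 12.6 ± 2.19 CPM in Pilo (SD, n = 4 each) in exons, a change of -0.08 (SE 0.13). In introns Mvk stood at 37.0, 35.3, 35.2 and 32.1 CPM in Mock and 19.2, 30.1, 28.6 and 30.7 CPM in Pilo. These groups did not overlap, and the change was -0.37 (SE 0.14, adjusted p = 0.0507). It passed with the replicate block (adjusted p = 0.0107), with DESeq2 (adjusted p = 0.0476), with limma-voom (adjusted p = 0.0397), with no filter (adjusted p = 0.0437) and without Pilo 2 or 4 (adjusted p = 0.0448 and 0.0459). Mvd, which decarboxylates mevalonate diphosphate, was at 0.03 (SE 0.09) in exons and -0.20 (SE 0.12) in introns. Idi1, isopentenyl-diphosphate isomerase, averaged 6.84 ± 1.20 and 5.71 ± 0.659 CPM in exons (-0.26, SE 0.15, adjusted p = 0.208). Exonic Idi1 was lower in each of the 4 same-numbered pairs. With the block its adjusted p was 0.0716, and 0.0467 in the exonic columns of the second table (-0.28). Ggps1, which makes geranylgeranyl diphosphate for protein prenylation, stood at 69.1 to 80.1 CPM in Mock and 70.2 to 74.2 CPM in Pilo (-0.07, SE 0.07).

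Fdps had the largest fold change of the 31 genes, on few reads. Its exonic counts were 98, 90, 134 and 99 in Mock and 52, 23, 30 and 40 in Pilo, or 2.88 to 3.57 CPM against 0.751 to 1.49 CPM. Fdps (chromosome 3, 89093588 to 89101959) fell by 1.52 on the log2 scale (SE 0.22, adjusted p = 0.000199), and the groups did not overlap. The exonic columns of the second table gave 60, 80, 61 and 65 counts in Mock and 32, 17, 15 and 21 in Pilo, a change of -1.66 (SE 0.24). In introns it fell by 0.91 (SE 0.31, adjusted p = 0.0293), a call lost without Mock 1 or Pilo 1, 2 or 3 (adjusted p 0.0625 to 0.108).

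**Figure D2:**
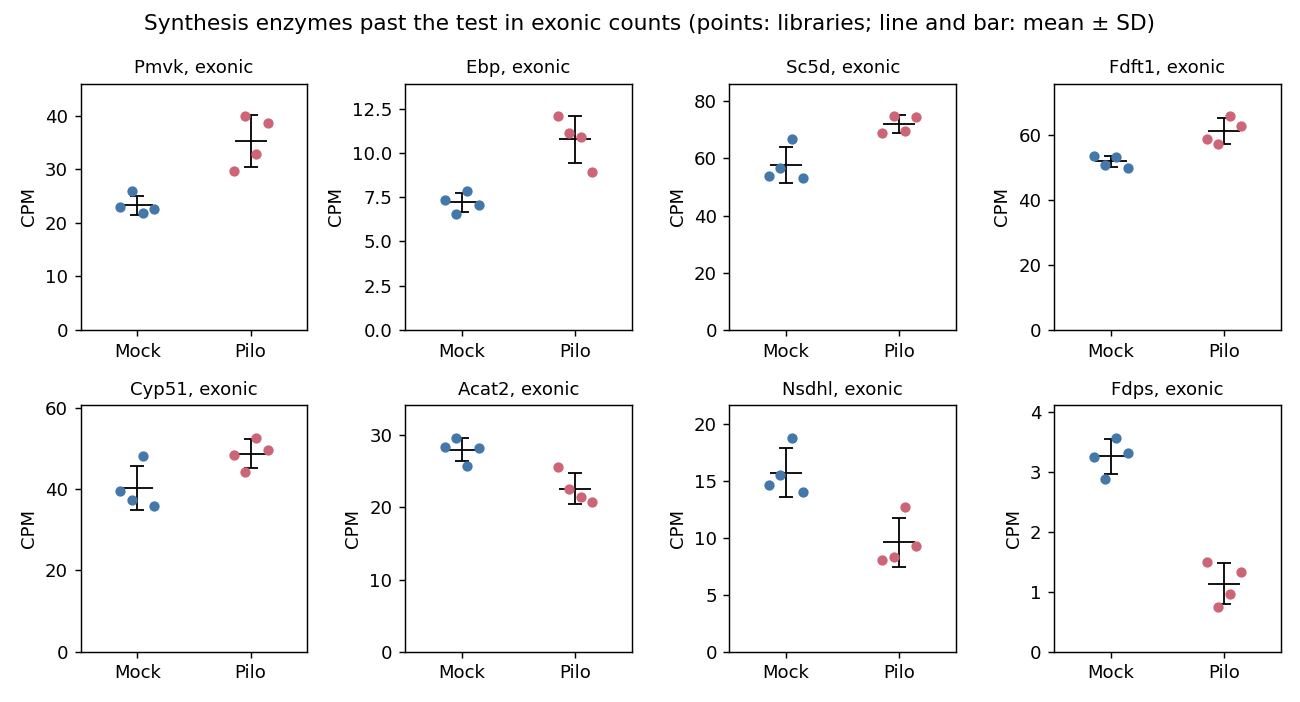
Exonic level in CPM of the 8 synthesis enzymes that passed the test, with 1 point per library, a horizontal line at the group mean and bars of 1 SD (n = 4). The 2 groups are apart in every panel but that of Cyp51, where Mock 3 at 48.2 CPM lies within the Pilo range of 44.2 to 52.7 CPM.

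Genes that commit isoprenoids to sterols went different ways. Fdft1 (chromosome 14, 63145150 to 63179578), squalene synthase, stood at 53.4, 50.6, 53.2 and 49.8 CPM in Mock and 58.8, 57.2, 65.8 and 62.8 CPM in Pilo. It rose by 0.24 (SE 0.07, adjusted p = 0.0195) in exons and 0.31 (SE 0.10, adjusted p = 0.0226) in introns. The exonic groups did not overlap, and the intronic groups did, at 116 to 138 and 137 to 175 CPM. Exons of Fdft1 share 18.3% of its exonic length with Ctsb on the opposite strand, and without knowledge of the strand setting their reads cannot be told apart. The exonic call was lost without Mock 2 or 4 or Pilo 4 (adjusted p 0.0537 to 0.0623) and with no filter on low counts (adjusted p = 0.0521), and the intronic call without Mock 3 or 4 or Pilo 2 (adjusted p 0.0533 to 0.0682).

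Sqle and Lss, squalene epoxidase and lanosterol synthase, fell in introns. Intronic Sqle was 27.3, 30.1, 25.3 and 24.4 CPM in Mock and 23.2, 17.8, 16.9 and 14.6 CPM in Pilo, and intronic Lss was 39.8, 36.8, 30.4 and 30.4 CPM in Mock and 21.9, 26.0, 25.4 and 20.2 CPM in Pilo. Neither gene's groups overlapped. Intronic Sqle fell by 0.56 (SE 0.15, adjusted p = 0.00622) and intronic Lss by 0.56 (SE 0.13, adjusted p = 0.00359). In exons Sqle was at -0.19 (SE 0.11, adjusted p = 0.219), lower in each of the 4 same-numbered pairs, and passed with the replicate block (adjusted p = 0.0219). Exonic Lss was at -0.10 (SE 0.08, adjusted p = 0.364). The difference between regions was 0.43 for Lss (SE 0.10, adjusted p = 0.00597) and 0.35 for Sqle (SE 0.11, adjusted p = 0.0294). That of Sqle was lost without Mock 1, 3 or 4 or Pilo 2 or 4 (adjusted p 0.0515 to 0.119).

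Enzymes that turn lanosterol into cholesterol changed in opposite directions. Sc5d (chromosome 9, 42251595 to 42264256), lathosterol oxidase, and Ebp (chromosome X, 8185329 to 8193512), the sterol isomerase that acts just before it, both rose, while Nsdhl (chromosome X, 72918557 to 72958514), a decarboxylating sterol dehydrogenase, fell. Exonic Ebp was 7.36, 6.54, 7.86 and 7.07 CPM in Mock and 12.1, 11.1, 10.9 and 8.95 CPM in Pilo. The groups were apart, and Ebp rose by 0.58 (SE 0.12, adjusted p = 0.00251). Exonic Nsdhl was 14.6, 15.5, 18.8 and 14.0 CPM in Mock and 8.08, 8.29, 12.7 and 9.31 CPM in Pilo, a fall of 0.71 (SE 0.15, adjusted p = 0.00260). Intronic Nsdhl was 26.6, 35.4, 23.1 and 21.3 CPM in Mock and 11.6, 18.6, 8.94 and 11.9 CPM in Pilo, again without overlap, a fall of 1.07 (SE 0.21, adjusted p = 0.000827). The calls of Ebp and Nsdhl in each region tested held in every alternative run.

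Sc5d had the largest intronic rise of the 31 genes. Its intronic levels were 36.4, 39.2, 34.5 and 29.2 CPM in Mock and 63.4, 60.4, 70.3 and 67.6 CPM in Pilo, a rise of 0.91 (SE 0.11, adjusted p = 2.31e-05). In the exonic table it stood at 53.9, 56.6, 66.7 and 53.1 CPM in Mock and 68.7, 74.9, 69.7 and 74.5 CPM in Pilo, a rise of 0.32 (SE 0.08, adjusted p = 0.00959). Neither region's groups overlapped. The exonic change was smaller than the intronic one by 0.62 (SE 0.08, adjusted p = 0.000122), and this difference passed in every alternative run.

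Cyp51, lanosterol demethylase, stood at 39.5, 37.4, 48.2 and 35.9 CPM in Mock and 48.3, 44.2, 52.7 and 49.7 CPM in Pilo. The groups overlapped through Mock 3, and Pilo was higher in each same-numbered pair. Its rise of 0.27 (SE 0.10, adjusted p = 0.0468) was lost without Mock 1, 2 or 4 or Pilo 1, 3 or 4 (adjusted p 0.0650 to 0.136) and in the second table's exonic columns, in the sum of exons and introns and with a stricter filter (adjusted p = 0.0710, 0.0653 and 0.0736). Intronic Cyp51 was at 0.23 (SE 0.16, adjusted p = 0.266), or adjusted p = 0.0470 with the block and 0.0114 without Mock 2. Cyp51 shares 3.8% of its exonic length with Akap9 on the opposite strand.

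Hsd17b7, a sterol ketone reductase of the same part of the pathway, stood at 13.1, 15.5, 9.30 and 9.87 CPM in Mock introns and 10.9, 7.88, 5.62 and 7.34 CPM in Pilo introns. The ranges overlapped. Intronic Hsd17b7 fell by 0.59 (SE 0.21, adjusted p = 0.0361), and the call was lost without Mock 1 or 2 or Pilo 2, 3 or 4 (adjusted p 0.0678 to 0.141). In exons Hsd17b7 was at -0.13 (SE 0.12). Msmo1, the sterol methyl oxidase, did not pass in exons, at 34.4 to 47.6 CPM in Mock and 29.3 to 46.6 CPM in Pilo, and its intronic change of -0.35 (SE 0.20, adjusted p = 0.181) passed without Pilo 1 (-0.55, adjusted p = 0.0317). Dhcr7, which makes the last reduction of one branch, was at -0.04 (SE 0.10) in exons and -0.23 (SE 0.14, adjusted p = 0.197) in introns, the latter at adjusted p = 0.0217 with the block. Tm7sf2, a sterol reductase, stood at 67.1, 56.0, 75.3 and 80.2 CPM in Mock and 53.5, 65.5, 76.8 and 72.0 CPM in Pilo in the second table's exons, and at 66.0, 55.8, 84.2 and 77.7 CPM and 62.4, 83.7, 95.0 and 85.2 CPM in introns. The groups overlapped in both regions, and neither change passed, but its exonic change lay below its intronic change by 0.26 (SE 0.07, adjusted p = 0.0168). Tm7sf2 shares 12.1% of its exonic length with Vps51 on the same strand.

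**Figure D3:**
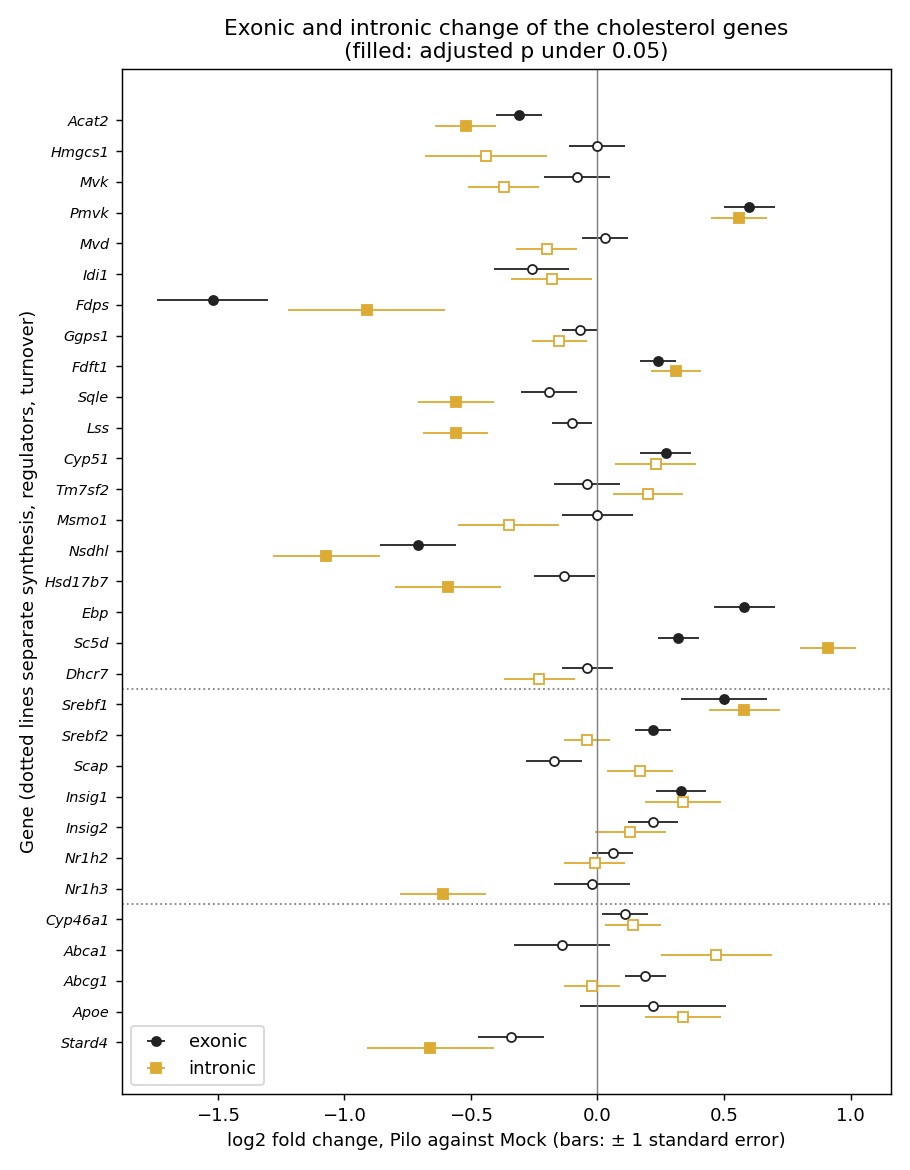
Log2 fold change of each of the 31 genes, Pilo against Mock, in exonic counts (black circles) and intronic counts (yellow squares), with bars of 1 standard error and filled symbols where the adjusted p was under 0.05. Fdps lies farthest to the left at -1.52 in exons and Sc5d farthest to the right at 0.91 in introns.

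Among regulators, the genes of both SREBP factors and of Insig1 rose in exons. Srebf2 (chromosome 15, 82147181 to 82205379) stood at 183, 180, 191 and 173 CPM in Mock and 198, 211, 220 and 217 CPM in Pilo, with no overlap. It rose by 0.22 (SE 0.07, adjusted p = 0.0306) in exons and was at -0.04 (SE 0.09, adjusted p = 0.744) in introns, a difference between regions of 0.24 (SE 0.06, adjusted p = 0.0159). The exonic call was lost without Mock 1, 2 or 4 or Pilo 2, 3 or 4 (adjusted p 0.0518 to 0.0905) and in the sum of exons and introns (adjusted p = 0.0656) and with no filter on low counts (adjusted p = 0.0778). The difference was lost without Pilo 2 (adjusted p = 0.0618).

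Srebf1 (chromosome 11, 60199089 to 60222581), whose products act more on fatty acid synthesis, had exonic levels of 29.6, 23.6, 27.7 and 37.3 CPM in Mock and 33.2, 34.3, 45.9 and 53.9 CPM in Pilo. The ranges overlapped through Mock 4. It rose by 0.50 (SE 0.17, adjusted p = 0.0488) in exons, a call lost without Mock 1, 2 or 3 or Pilo 3 or 4 (adjusted p 0.0907 to 0.127), in the second table (adjusted p = 0.0553), with a stricter filter (adjusted p = 0.0564) and with none (adjusted p = 0.189). With the replicate block the adjusted p was 6.35e-05. Its introns stood at 19.6, 16.6, 19.0 and 18.8 CPM in Mock and 24.9, 26.7, 24.6 and 34.7 CPM in Pilo, without overlap, a rise of 0.58 (SE 0.14, adjusted p = 0.00300) that passed in every alternative run. The locus of Srebf1 overlaps Rai1 on the opposite strand, which shares 1.9% of its exonic length, and the strand setting is not known.

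Insig1 and Insig2 encode the proteins that retain the SCAP complex. Exonic Insig1 was 51.4, 40.9, 51.7 and 46.8 CPM in Mock and 64.9, 59.5, 49.0 and 66.0 CPM in Pilo, overlapping through Pilo 3. It rose by 0.33 (SE 0.10, adjusted p = 0.0290), a call lost without Mock 2 or 4 or Pilo 1 or 4 (adjusted p 0.0669 to 0.0937). Insig2 was at 24.7 to 28.6 CPM in Mock and 27.8 to 38.5 CPM in Pilo, with a change of 0.22 (SE 0.10, adjusted p = 0.132) that passed with the block (adjusted p = 0.0221). Intronic Insig1 was at 0.34 (SE 0.15, adjusted p = 0.0803), and passed with the block (adjusted p = 0.00852) and without Mock 1 or Pilo 2 (adjusted p = 0.0493 and 0.0197).

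Scap, the sterol sensor and escort of the SREBP factors, moved apart in its 2 regions. In the exonic columns of the second table it stood at 216, 158, 190 and 209 CPM in Mock and 162, 145, 187 and 180 CPM in Pilo. Its introns stood at 171, 117, 158 and 176 CPM in Mock and 159, 150, 199 and 193 CPM in Pilo. Within each region the groups overlapped, and neither the exonic change of -0.19 (SE 0.11, adjusted p = 0.196) nor the intronic change of 0.17 (SE 0.13, adjusted p = 0.313) passed. Both passed with the replicate block (adjusted p = 0.0160 and 0.0440). In the first table the exonic change was -0.17 (SE 0.11, adjusted p = 0.264, or 0.0312 with the block). The difference between regions was -0.37 (SE 0.06, adjusted p = 0.000984) and passed in every alternative run. Opposite to Scap lies the unclassified transcript 5830462I19Rik, which shares 13.2% of its exonic length.

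The liver X receptor genes did not pass in exons. Nr1h2, the widely expressed form, was at 68.9 to 85.3 CPM in Mock and 76.2 to 87.9 CPM in Pilo (0.06, SE 0.08). Nr1h3, better known from macrophages and liver, was low, at 2.45 to 2.72 CPM in Mock and 2.39 to 2.84 CPM in Pilo (-0.02, SE 0.15). Its intronic reads were more numerous, at 13.0, 18.0, 13.1 and 10.3 CPM in Mock and 8.88, 9.33, 9.41 and 7.92 CPM in Pilo, and fell by 0.61 (SE 0.17, adjusted p = 0.00975) without overlap. The difference between regions was 0.52 (SE 0.17, adjusted p = 0.0358) and was lost without Mock 1, 2 or 3 or any of the 4 Pilo replicates (adjusted p 0.0505 to 0.126). Nr1h3 overlaps Gm13783 on the same strand, which shares 1.4% of its exonic length.

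**Figure D4:**
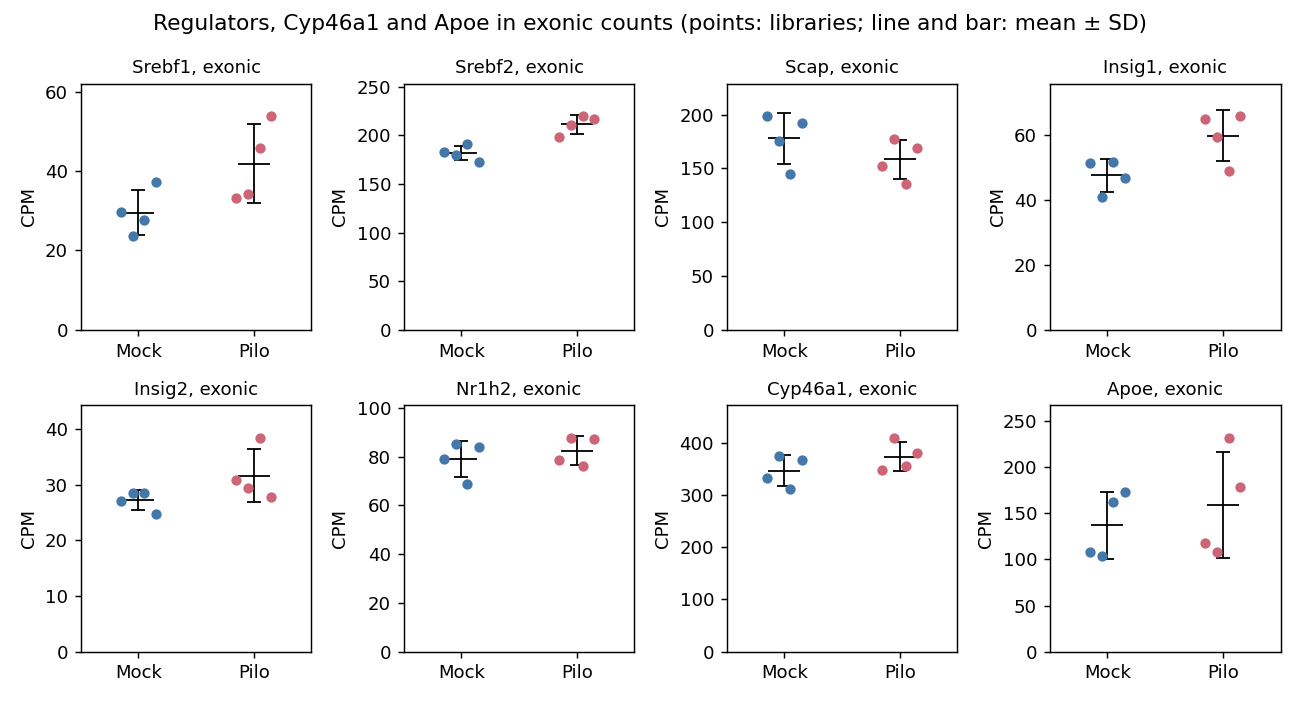
Exonic level in CPM of 6 regulators, of Cyp46a1 and of Apoe, with 1 point per library, a line at the group mean and bars of 1 SD (n = 4). Only Srebf2 shows groups that do not overlap, at 173 to 191 against 198 to 220 CPM.

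None of the 5 genes of turnover, export and transport passed in exons. Cyp46a1, the 24-hydroxylase of neurons, stood at 333, 374, 311 and 367 CPM in Mock and 348, 410, 355 and 381 CPM in Pilo, higher in each same-numbered pair but with ranges that overlapped (0.11, SE 0.09, adjusted p = 0.366). Abcg1, a sterol exporter, was at 55.4 to 67.4 CPM in Mock and 65.3 to 77.4 CPM in Pilo (0.19, SE 0.08, adjusted p = 0.0857). It passed with the block (adjusted p = 0.00963) and without Mock 1 (adjusted p = 0.0492). Stard4, a cytosolic sterol carrier, was at 16.0, 10.9, 14.0 and 12.1 CPM in Mock and 11.1, 8.91, 11.6 and 10.0 CPM in Pilo, lower in each pair. Its exonic change was -0.34 (SE 0.13, adjusted p = 0.0631). It passed with the block (adjusted p = 0.00473), in the exonic columns of the second table (adjusted p = 0.0489), with no filter (adjusted p = 0.0483) or a stricter one (adjusted p = 0.0478) and without Mock 2 (adjusted p = 0.0333). Intronic Stard4 was 6.28, 4.50, 3.99 and 3.82 CPM in Mock and 3.72, 2.23, 2.37 and 3.42 CPM in Pilo, without overlap. In introns Stard4 fell by 0.66 (SE 0.25, adjusted p = 0.0422), a call lost without Mock 1 or 2 or Pilo 2, 3 or 4 (adjusted p 0.0503 to 0.162).

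Abca1, the exporter that loads apolipoproteins, had exonic levels of 27.0, 24.9, 18.1 and 30.1 CPM in Mock and 25.1, 22.7, 14.4 and 27.1 CPM in Pilo in the second table. Its introns were at 9.28, 8.35, 5.16 and 9.74 CPM in Mock and 12.8, 10.3, 7.91 and 14.2 CPM in Pilo. In each same-numbered pair the exonic level was lower and the intronic level higher in Pilo, while the ranges of the groups overlapped. The exonic change in that table was -0.16 (SE 0.19, adjusted p = 0.566), where the first table gave -0.14 (SE 0.19, adjusted p = 0.644), and the intronic change 0.47 (SE 0.22, adjusted p = 0.0912), the latter at adjusted p = 0.00501 with the block and 0.0325 without Pilo 3. The difference between regions was -0.64 (SE 0.11, adjusted p = 0.000882), the lowest of the called differences, and passed in every alternative run.

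**Figure D5:**
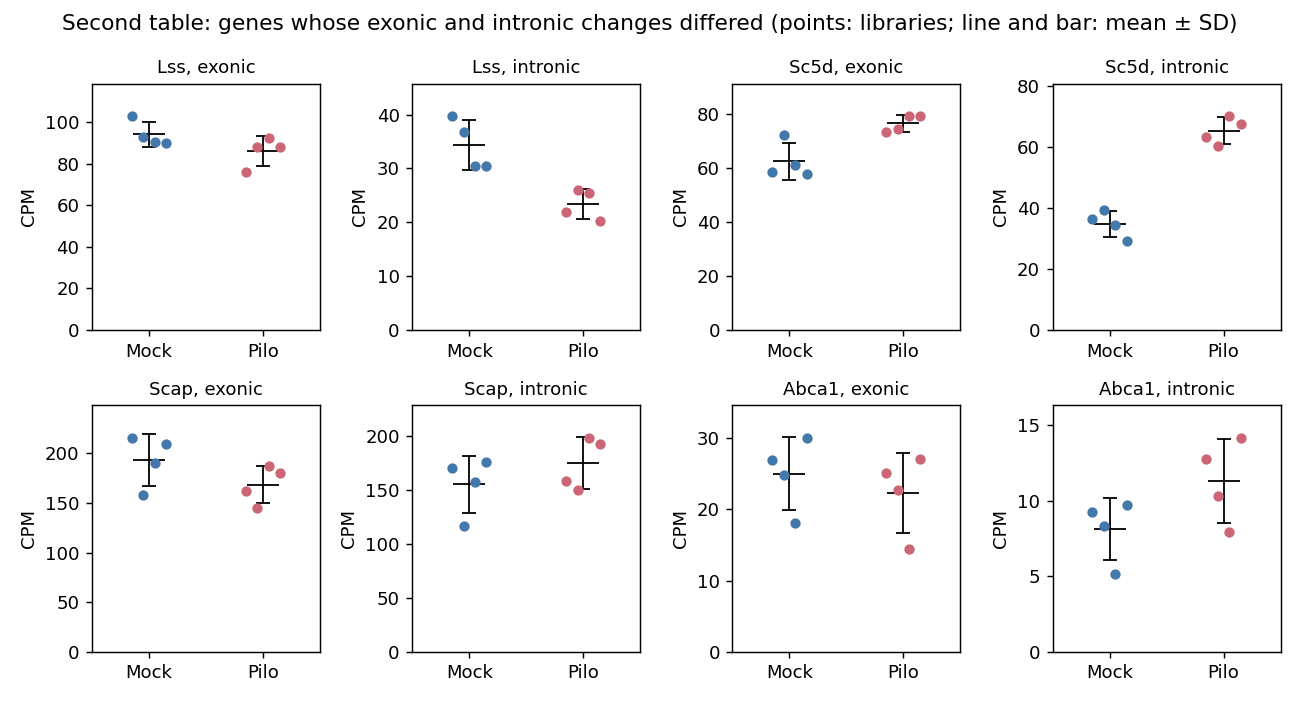
Exonic and intronic levels in CPM, both from the second table, of 4 genes whose changes differed between regions, with 1 point per library, a line at the group mean and bars of 1 SD (n = 4). Intronic Lss falls from 30.4 to 39.8 CPM to 20.2 to 26.0 CPM with its exons overlapping, and intronic Sc5d lies at 60.4 to 70.3 CPM in Pilo against 29.2 to 39.2 CPM in Mock.

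Apoe, the main apolipoprotein of the brain and chiefly a product of astrocytes, varied between libraries of the same group. In exons it stood at 108, 104, 162 and 173 CPM in Mock and 118, 108, 232 and 178 CPM in Pilo. Replicates 3 and 4 were the high ones in both groups. The summed astrocyte markers in the same libraries were 929, 821, 1209 and 1181 CPM in Mock and 1227, 975, 1458 and 1450 CPM in Pilo, also highest in replicates 3 and 4, and their part in the level of Apoe was not tested. The change of Apoe was 0.22 (SE 0.29, adjusted p = 0.628), and with the replicate block 0.19 (adjusted p = 0.0388). Intronic Apoe was 11.6, 17.4, 15.5 and 16.9 CPM in Mock and 16.3, 22.7, 19.3 and 19.9 CPM in Pilo, higher in each pair with ranges that overlapped. Its intronic change of 0.34 (SE 0.15, adjusted p = 0.0856) passed with the block (adjusted p = 0.0102) and without Pilo 1 (adjusted p = 0.0379).

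Exonic and intronic changes were also compared directly, as the interaction of region with treatment. The difference passed for 10 of 30 genes (33.3%), against 26.2% of 13047 genes. Exons lay above introns in 6 (Hmgcs1, Mvk, Sqle, Lss, Srebf2 and Nr1h3, against a background of 13.5%) and below in 4 (Sc5d, Tm7sf2, Scap and Abca1, against 12.8%). Mvk was at 0.27 (SE 0.09, adjusted p = 0.0473), a call lost without any library but Mock 4 (adjusted p 0.0577 to 0.142) and with no filter (adjusted p = 0.0534). Passed or not, exons lay above introns in 12 of 18 enzymes, or 66.7%, beside 51.3% of all genes, and the median difference of the enzymes was 0.18 beside 0.01. With the replicate block 11 genes lay above, now with Acat2, Msmo1, Nsdhl, Hsd17b7 and Abcg1 (background 20.5%), and 4 below (background 18.7%, 39.3% in all). Without Pilo 1 the difference also passed for Acat2, Hsd17b7 and Msmo1, with exons above (adjusted p = 0.0473, 0.00807 and 0.00746), and for Fdps, with exons below (adjusted p = 0.0458). The number above ranged from 1 to 7 when single libraries were left out. It was 1 without Pilo 2, 2 without Mock 1 or Pilo 4, and 3 without Mock 2 or 3 or Pilo 3.

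Other genes of the pathway were read from 4 further lists. Of 13 fatty acid synthesis genes that SREBP factors also drive, 5 rose and 1 fell in exons, a share of 46.2% beside 31.8% of all genes, with a median of 0.30. They included Me1, malic enzyme, at 0.55 (SE 0.08), Gpam, which starts glycerolipid synthesis, at 0.46 (SE 0.09), and the desaturase Fads1 at 0.30 (SE 0.07) and elongase Elovl5 at 0.40 (SE 0.11). With the block 10 rose and 1 fell, where 23.8% of all genes rose and 23.2% fell. Of 13 genes of sterol sensing, SREBP processing and degradation, 2 rose and 2 fell, a share of 30.8% that is near the 31.8% of all genes. Rnf145, a sterol-responsive ubiquitin ligase, rose by 0.66 (SE 0.07), and Sec24d, a coat protein of vesicles that leave the endoplasmic reticulum, by 0.41 (SE 0.11). Erlin1 and Erlin2, paired proteins of the endoplasmic reticulum membrane, fell by 0.54 (SE 0.09) and 0.50 (SE 0.08).

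Of 12 genes of the isoprenoid branch, 1 rose and 2 fell, a share of 25.0% beside 31.8% of all genes. Rabggtb, of Rab prenylation, rose by 0.30 (SE 0.08), while Icmt, which methylates prenylated proteins, fell by 0.47 (SE 0.08) and Coq2, of coenzyme Q synthesis, by 0.36 (SE 0.07). Pdss1, which makes the coenzyme Q side chain, was at -0.20 (SE 0.08, adjusted p = 0.0662). Of 25 tested genes of uptake, intracellular transport and esterification, 5 rose and 1 fell, a share of 24.0% beside 31.8% of all genes. Gramd1b, a sterol carrier at membrane contacts, rose by 0.55 (SE 0.08) and Mylip, the ligase that degrades lipoprotein receptors, by 0.38 (SE 0.09). Osbp2, an oxysterol-binding protein, rose by 0.37 (SE 0.10) and Lrp8, an apolipoprotein E and reelin receptor, by 0.32 (SE 0.09). The gene not tested was below the filter on low counts.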

How the data were processed

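RNA was measured in 4 Mock and 4 Pilo samples. The deposited files hold raw read counts: exonic counts per Ensembl gene in one table, and exonic and intronic counts per Entrez gene in a second. The submitters' processing notes name the build mm10 and, without their roles, HTSeq 0.11.2, STAR 2.7.1a, Trimmomatic 0.39, edgeR and R 4.1.1. The sources used here do not give the strand setting or the handling of shared reads.

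Counts were fitted with edgeR 4.0.16 (R 4.3.3) by the quasi-likelihood test with TMM scaling, after filterByExpr with a minimum count of 10, and adjusted by Benjamini-Hochberg over all genes at 0.05. Exonic and intronic changes were compared as an interaction within the second table. Standard errors were the coefficient over the square root of F. Alternatives were RLE factors, DESeq2 1.42.0, limma-voom (limma 3.58.1), no filter, a mean count of at least 50, the replicate number as a block, each library left out, second-table exons, and exons with introns. The fits were also run on simulated counts, drawn without ties between same-numbered samples and separately for exons and introns. That run does not show how the fits behave where such ties exist. Same-numbered Mock and Pilo samples deviated together from their group means (r 0.425 to 0.477 in exons, 0.332 to 0.503 in introns). The main fits held treatment only and left these pairs out. They entered only in the alternative with the replicate number as a block. Columns 2 and 3 were exchanged between tables in both groups (matched columns r 0.994 to 0.996).

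The members and lists were chosen with earlier results of these data known. Every member could be named. Those called in any comparison were given with every sample's value in exons, introns or both. From each further list the 4 genes of smallest exonic p were named. Coordinates are GRCm38 (GENCODE vM21), shared sequence was counted over stretches of 50 bases, and promoter windows are from RefSeq.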

Additional observations from a re-analysis of the deposited data

Results flagged for a closer look

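The intronic level of Fdps in Pilo replicate 4 was 1.92 CPM (23 counts), where the other 3 Pilo libraries were at 0.942 to 1.07 CPM (11 to 15 counts). Its gap to the nearest library was 0.865 of the group's range, above Dixon's 95% critical value for 4 samples. It was the 1 case among 122 groups of 4 checked, or 0.820%, where chance gives about 1 in 20.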

How the results depend on the processing

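Of 1304 values of single genes under the alternatives, 1185 kept their side of the threshold, 29 of them with a changed sign, 79 lost a call, 69 of them when a library was left out, and 40 gained one. No value that passed the test in either fit changed sign. The replicate block gave 18 of the gains and 0 losses. The 8 exonic rises became 11 with the replicate block, 5 with no filter on low counts and 3 to 7 when single libraries were left out. The 3 exonic falls became 6 with the replicate block and 2 to 3 when single libraries were left out. The 4 intronic rises became 9 with the replicate block and 3 to 5 without single libraries. The 8 intronic falls became 10 with the replicate block and 5 to 9 without single libraries. Exonic changes above intronic ones numbered 11 with the replicate block and 1 to 7 without single libraries, against 6, and those below numbered 4 to 5, against 4. The cause was not tested.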
